A study of Mus musculus with 9 samples.

Results

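The mitochondrial ribosomal proteins were taken as every protein-coding gene whose symbol in the deposited gene annotation begins with Mrpl or Mrps followed by a number. The rule found 77 genes among the 55487 genes of the count table, 50 of the large subunit of the mitochondrial ribosome, 26 of the small subunit and Mrps36, which is now assigned to another complex. The rule uses no measured value, but the set was chosen with earlier results of these data known. Expression was measured by sequencing of polyadenylated RNA from the gastrocnemius, a calf muscle, of wild-type mice labelled C57BL/6 and male. The study's text gives the strain as C57BL/6J. There were 4 Control libraries from mice in ordinary cages, 2 Unloading libraries from mice whose hindquarters had been suspended by the tail for 10 days, and 3 Reloading libraries from mice that were suspended in the same way and then walked freely for 1 day. Female mice are named in the study's methods for the suspension. The labels do not tie a library to a mouse, so the p-values measure the spread between these libraries only.

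Mitochondria keep their own ribosome. Its RNA comes from mitochondrial DNA, while its proteins are encoded in the nucleus, made in the cytosol and imported. It translates the few mRNAs that mitochondrial DNA encodes, all of which specify subunits of the respiratory chain and ATP synthase, so that it supplies the core of the machinery by which muscle fibres oxidise fuel. The small subunit decodes the mRNA, and the large subunit forms peptide bonds and docks on the inner membrane. Part of the proteins have a counterpart in bacterial ribosomes and part are found in mitochondria only, and the nuclear genes are known targets of the factors NRF1, GABP and YY1 and of the PGC-1 coactivators.

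The libraries held between 9252443 and 19612101 read pairs in genes, of which the 77 genes took between 25154 and 46772. Each of the 77 had at least 53 counts in every library, so all passed the filter on low counts that left 14851 genes to test. Control 2 and Reloading 1 stood apart by transcripts of skin: 5 keratin genes summed to 232.8 and 116.1 counts per 1000000 (CPM) there and to at most 4.03 CPM in the other libraries. The numbers of calls in each comparison are also given without this pair. Genes that define muscle fibres summed to between 106257 and 159638 CPM in each library, which is what the tissue label calls for. Reloading differed in composition, since genes of mitochondrial DNA took between 6.49% and 6.75% of its counts against 9.36% to 10.6% in the other libraries, 8 macrophage genes summed to 146 to 163 CPM against 67.3 to 81.8 CPM, 5 endothelial genes to 215 to 265 CPM against 118 to 142 CPM, 5 smooth muscle genes to 168 to 190 CPM against 97.5 to 137 CPM, and the 7 fibre genes to 106257 to 118692 CPM against 147353 to 159638 CPM. The part of these shifts in the results below was not tested, and in whole muscle fewer cells of a type and less RNA per cell cannot be told apart.

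Sequence around the start of transcription was matched by symbol for 68 of the 77 genes in RefSeq promoters of build GRCm38.p6, each from 250 bases before to 50 bases after the start. The NRF1 word CGCATGCG, searched on both strands, was in the promoters of 7 of the 68 (10.3%) against 2.07% of all 27025 genes with a promoter. The word CCGGAAGT of GABP and other ETS factors was in 12 (17.6%) against 4.31%, and the YY1 word AAGATGGC likewise in 12 (17.6%) against 3.19%. At least 1 of these words was in 29 of the 68 (42.6%), against 9.03% of all genes. The E-box CACGTG was in 5 (7.35%) against 8.09%, the heat shock word GAANNTTC in 5 (7.35%) against 9.04%, and TCAAGGTCA of oestrogen-related receptors was in 0 of the 68 against 0.466%. A match is a description of the letters only. The promoters of the 68 were richer in G and C, with a median of 58.5% against 52.7%. Shown here without the transcribed bases are 5 of them that stand for the patterns described below. In capitals are NRF1, ETS, YY1 or E-box words on either strand. Mrps18b (minus strand, chr17:35916441-35916690) was higher after reloading and holds an NRF1 word, Mrps18c (plus strand, chr5:100798509-100798758) was lower after reloading and holds an E-box directly followed by an ETS word without overlap, and Mrpl39 (minus strand, chr16:84735245-84735494) and Mrpl51 (plus strand, chr6:125191950-125192199) were lower in both Unloading and Reloading and hold an NRF1 and an ETS word. Mrpl42 (minus strand, chr10:95501950-95502199) was the member lowered most in Reloading against Control and holds none of these words before its start. Mrpl39 and Mrpl51 were chosen after their values were seen.
Mrps18b: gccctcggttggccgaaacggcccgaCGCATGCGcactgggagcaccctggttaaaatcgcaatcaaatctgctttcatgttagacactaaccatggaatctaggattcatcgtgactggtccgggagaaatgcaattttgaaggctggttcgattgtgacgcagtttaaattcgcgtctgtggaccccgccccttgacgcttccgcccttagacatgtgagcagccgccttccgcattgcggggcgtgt
Mrps18c: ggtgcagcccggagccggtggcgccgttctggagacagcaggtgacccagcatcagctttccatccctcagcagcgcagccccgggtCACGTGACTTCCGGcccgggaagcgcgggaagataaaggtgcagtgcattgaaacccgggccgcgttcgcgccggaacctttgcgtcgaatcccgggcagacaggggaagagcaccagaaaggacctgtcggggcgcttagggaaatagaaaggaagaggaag
Mrpl39: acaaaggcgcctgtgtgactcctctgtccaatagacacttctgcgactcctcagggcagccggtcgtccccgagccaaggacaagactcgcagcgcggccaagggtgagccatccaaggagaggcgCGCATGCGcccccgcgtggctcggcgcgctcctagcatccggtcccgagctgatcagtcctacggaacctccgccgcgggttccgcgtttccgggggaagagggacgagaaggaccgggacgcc
Mrpl51: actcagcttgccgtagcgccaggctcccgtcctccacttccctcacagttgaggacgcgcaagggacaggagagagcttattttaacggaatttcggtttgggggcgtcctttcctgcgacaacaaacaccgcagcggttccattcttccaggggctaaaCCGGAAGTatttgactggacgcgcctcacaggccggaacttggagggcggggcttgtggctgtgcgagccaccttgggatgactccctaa
Mrpl42: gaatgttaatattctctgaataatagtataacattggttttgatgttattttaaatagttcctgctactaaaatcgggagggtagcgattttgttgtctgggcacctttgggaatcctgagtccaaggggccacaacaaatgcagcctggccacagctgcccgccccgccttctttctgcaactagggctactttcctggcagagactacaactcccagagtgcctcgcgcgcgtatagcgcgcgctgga
For Unloading against Control the median log2 fold change (LFC) was -0.16 with and -0.22 without the NRF1 word, -0.22 with and without the ETS word, and -0.22 with and -0.21 without the YY1 word.

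The members differed widely in level although their products meet in a single particle. Levels were compared as CPM per 1000 bases of exon, averaged over the 9 libraries. The highest were Mrps21 at 82.8, Mrpl12 at 60.4, Mrpl2 at 51.4, Mrpl42 at 45.6 and Mrps23 at 44.4. Mrps21 is a small protein of the small subunit, and Mrpl2 sits close to the peptidyl transferase centre. The lowest were Mrps35 at 1.96, Mrpl19 at 2.79, Mrps25 and Mrps30 at 2.83 each, and Mrps10 at 3.14. The ranges over the libraries of Mrps21, between 63.3 and 97.1, and of Mrpl12, between 45.1 and 71.3, overlapped. These ranges pool all groups, and the first 2 places were not compared library by library. Exon length counts every annotated exon, so a gene with long rarely used exons has a lower value per length.

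**Figure D1:**
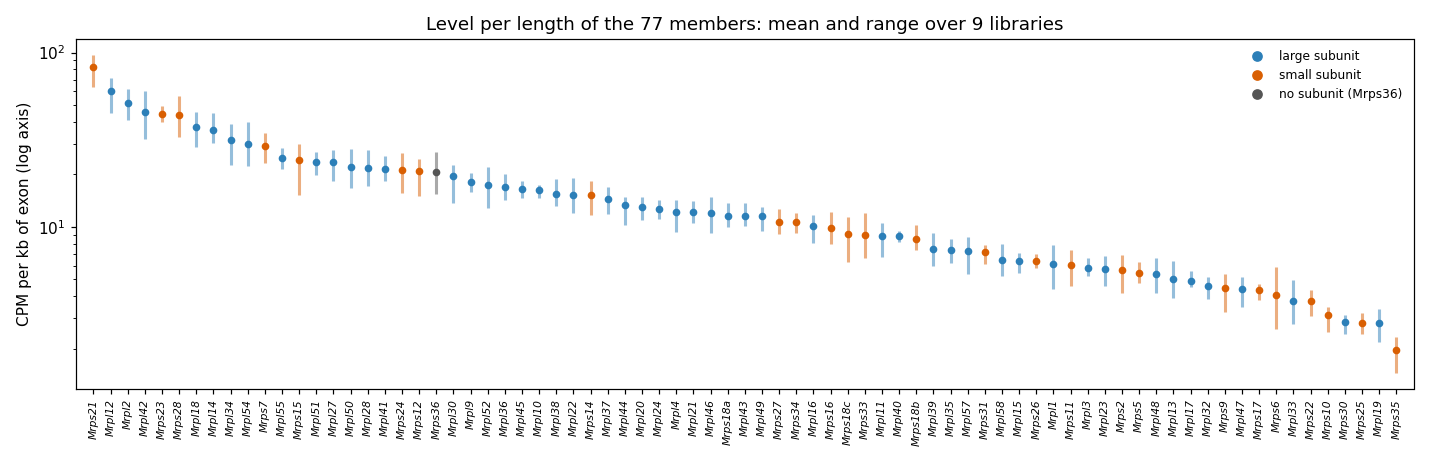
Level of each of the 77 genes in CPM per 1000 bases of exon on a log axis, ordered from highest to lowest, with dots for the mean over 9 libraries and bars from the lowest to the highest library. The levels run from 82.8 for Mrps21 to 1.96 for Mrps35, and neighbours in the order overlap.

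Summed over the 77 genes, the signal was lower in every Unloading and Reloading library than in every Control library. The sum was 2837, 2897, 2812 and 2862 CPM in Control 1 to 4, 2312 and 2556 CPM in Unloading 1 and 2, and 2236, 2266 and 2278 CPM in Reloading 1 to 3. The groups did not overlap when the plain share of all counts was taken instead, with 0.265% to 0.274% in Control, 0.219% and 0.238% in Unloading and 0.25% to 0.256% in Reloading, but on this scale Reloading lay above Unloading and on the CPM scale below it. Unloading 1 and Unloading 2 differed more from each other than the 4 Control libraries did.

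Ratios within a library do not depend on how libraries are scaled. Per 1000 CPM of the 76 cytosolic ribosomal proteins, the members had 220.4 to 234 CPM in Control, 165 and 191 CPM in Unloading and 181 to 189 CPM in Reloading, so the mitochondrial set was lower relative to the cytosolic set in all 5 libraries of both suspended groups. Per 1000 CPM of 37 nuclear genes of complex I, the first complex of the respiratory chain, they had 388 to 405 CPM in Control, 424 and 409 CPM in Unloading and 473 to 487 CPM in Reloading. Against complex I the members were thus higher, not lower, and the order was the same in all libraries: Control below Unloading below Reloading. Per 1000 CPM of the 13 mRNAs from mitochondrial DNA, the members had 25.5 to 29.3 CPM in Control, 23.1 and 23.9 CPM in Unloading and 38.5 to 39.5 CPM in Reloading. The summed large subunit stood at 2.46 to 2.52 times the summed small subunit in Control and at 2.39 to 2.42 times in the other 5 libraries. Mrpl42 was the most abundant member by CPM, and without it the ratio was 2.19 to 2.28 in Control, 2.18 in both Unloading libraries and 2.20 to 2.24 in Reloading, so that the Control and Reloading ranges overlapped.

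**Figure D2:**
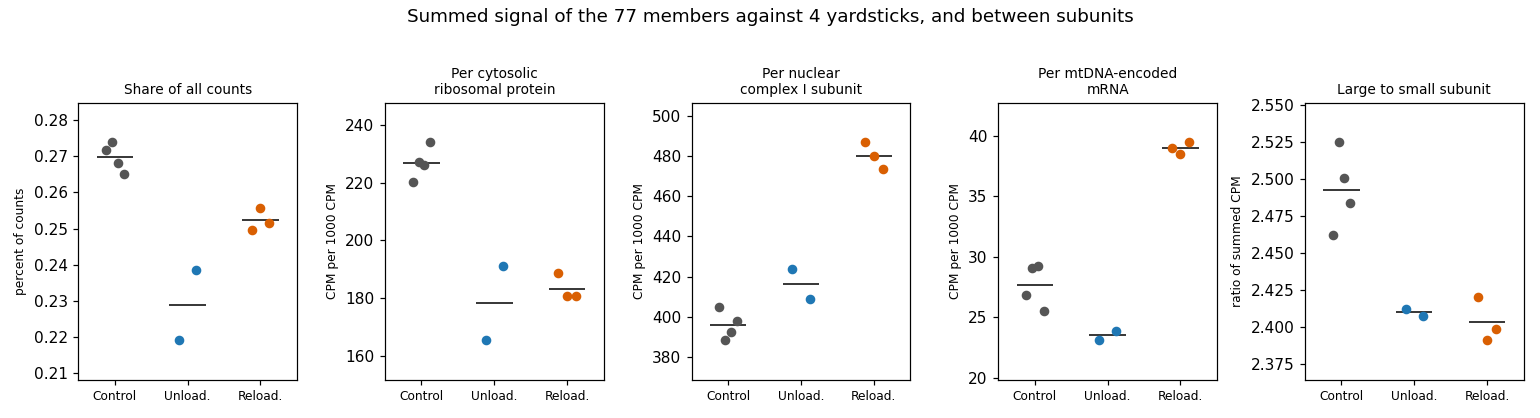
Summed signal of the 77 genes per library as a percentage of all counts, per 1000 CPM of cytosolic ribosomal protein genes, per 1000 CPM of nuclear complex I genes and per 1000 CPM of mRNAs from mitochondrial DNA, and the ratio of large to small subunit. Dots are libraries and lines are group means, and the vertical axes do not start at 0. Relative to cytosolic ribosomal proteins both suspended groups lie below Control, and relative to complex I both lie above it.

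Between Unloading and Control, nearly every member was lower by a small amount. Of the 77, 14 passed the test as lower (18.2%), against 5.50% of all tested genes, and 0 passed as higher, against 4.40% (9.90% in either direction). At an unadjusted p under 0.05, 45 were lower and 0 higher by edgeR's quasi-likelihood test, and 32 and 0 by DESeq2, which called 9 lower and 0 higher after adjustment. A negative LFC was seen for 74 members (96.1%) against 50.5% of all tested genes, and the median was -0.22 against -0.0038 over all genes. In 47 members both Unloading libraries lay below all 4 Control libraries (61.0%), against 16.6% of all tested genes, and in 0 members above them, against 16.4%. Scaling by library totals gave 15 lower, against 5.78% of all tested genes, and a median of -0.23. Under each of 5 scalings 12 members were called lower, a count not taken over all genes. The factors of the main scaling averaged 0.947 in Control and 0.942 in Unloading. The scalings thus could hardly differ between these groups, and the unchanged direction is little support. The number of calls rested on Unloading 1: without it 0 members were called lower, 13 had an unadjusted p under 0.05 and the median was -0.16, whereas without Unloading 2 there were 15 calls and a median of -0.31. Without Control 2, 3 or 4 there were 8, 6 and 9 calls, and without the skin-bearing pair 6. With Control and Reloading libraries paired by the numbers in their descriptions, 9 were called lower.

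The 6 largest of these differences belonged to members with varied roles. Mrps36, which despite its name is now placed in the 2-oxoglutarate dehydrogenase complex of the citric acid cycle, had 30.6, 34.2, 31.1 and 33.5 CPM in Control 1 to 4, 20.7 and 22.5 CPM in Unloading 1 and 2, and 22.9, 19.7 and 22.2 CPM in Reloading 1 to 3. Its Unloading and Reloading libraries were alike and all 5 lay below Control, with an LFC of -0.58 ± 0.09 (SE, adjusted p = 0.00252) for Unloading against Control. Mrps28, of the small subunit, had 38.3, 43.1, 43.9 and 42.0 CPM in Control 1 to 4, 25.5 and 31.9 CPM in Unloading 1 and 2, and 30.6, 27.9 and 26.6 CPM in Reloading 1 to 3. Again Control stood above the other 5 libraries, and the LFC for Unloading was -0.54 ± 0.10 (SE, adjusted p = 0.00456). Mrpl34, a short large-subunit protein with a bacterial counterpart, had 22.8, 23.7, 22.8 and 19.0 CPM in Control 1 to 4 against 13.7 and 17.9 CPM in Unloading, an LFC of -0.47 ± 0.12 (SE, adjusted p = 0.025). Here Unloading 1 was the low library, and Unloading 2 lay just below Control 4. Mrpl58, a peptidyl-tRNA hydrolase that frees stalled chains and is built into the large subunit, had 26.4, 25.9, 23.2 and 22.7 CPM in Control 1 to 4 against 17.4 and 18.5 CPM in Unloading, an LFC of -0.45 ± 0.10 (SE, adjusted p = 0.0129). Mrps33 had 15.3, 18.8, 18.3 and 19.9 CPM in Control 1 to 4 against 13.7 and 13.4 CPM in Unloading, with Control 1 closest to the Unloading libraries, and an LFC of -0.42 ± 0.12 (SE, adjusted p = 0.0321). Mrpl47, the counterpart of bacterial L29 near the exit of the peptide tunnel, had 22.7, 22.1, 19.7 and 20.6 CPM in Control 1 to 4 against 15.4 and 16.7 CPM in Unloading, an LFC of -0.40 ± 0.10 (SE, adjusted p = 0.0252). Without Unloading 1 the adjusted p of these 6 ranged from 0.0687 for Mrps36 to 0.366 for Mrpl34. The calls of Mrps33 and Mrpl47 were also lost without Unloading 2, with LFCs of -0.41 and -0.46. That of Mrps33 was also lost with libraries paired by description numbers (-0.36, adjusted p = 0.0866). It was lost as well without Control 2, 3 or 4 (-0.41, -0.42 and -0.38), and the call of Mrpl34 without Control 3 (-0.45). The other 8 called members were Mrps2, Mrpl12, Mrpl39, Mrpl13, Mrpl42, Mrpl1, Mrpl51 and Mrps18a, with LFCs between -0.40 and -0.27.

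From Unloading to Reloading, the members split. Of the 77, 20 passed as lower (26.0%) against 19.0% of all tested genes, and 6 as higher (7.79%) against 18.5% (37.5% in either direction). The median LFC was -0.10 against 0.03 over all genes, and 53 members were negative (68.8%) against 47.8% of all genes. All 3 Reloading libraries lay below both Unloading libraries in 31 members (40.3%), against 29.0% of all tested genes, and above them in 11 (14.3%), against 31.0%. In plain shares of all counts 6 lay below (7.79%), against 12.9% of all tested genes, and 32 above, against 50%. These directions depended on the scaling: with library totals alone the median of all genes moved to 0.27 and that of the members to 0.15. The 23 members then called higher and the 1 called lower stand against 35.4% and 7.34% of all tested genes. A change of scaling moves all genes of a comparison by nearly the same amount. The members' distance from the median of all genes, -0.12 under both scalings, is therefore nearly fixed in advance and is no check. Small-subunit genes made up 5 of the 6 higher members. That was 19.2% of the 26 small-subunit genes, near the 18.5% of all tested genes, while 1 of the 50 large-subunit genes (2%) was called higher. Of the 6 higher members, 5 were called higher under all 5 scalings, and of the 20 lower members Mrps15 alone was called lower under all 5. The median of all genes was 0.22 with library totals without mitochondrial DNA, and no scaling placed it below 0.0071. Higher calls could thus hardly be lost and lower calls easily, so these counts are no check. They were not taken over all genes. Without Unloading 2 there were 4 lower calls, without Reloading 1 or Reloading 2 there were 10 and 11, without Unloading 1 there were 3 higher calls, and without Control 2 and Reloading 1 together there were 4 higher and 10 lower.

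Mrps6, Mrps2, Mrps35, Mrps12, Mrps18b and Mrpl47 were the 6 higher members. Mrps6, on the platform of the small subunit and with a bacterial counterpart, had 6.65, 5.64, 5.50 and 5.06 CPM in Control 1 to 4, 3.97 and 5.41 CPM in Unloading 1 and 2, and 8.30, 8.97 and 6.42 CPM in Reloading 1 to 3. Reloading lay above Unloading throughout and Reloading 3 within the Control range, with LFCs of 0.73 ± 0.18 (SE, adjusted p = 0.00618) against Unloading and 0.47 ± 0.15 (SE, adjusted p = 0.0224) against Control. The first of these calls was lost without Unloading 1 (LFC 0.54, adjusted p = 0.0797), and the second without Control 3, Control 4, Reloading 1 or Reloading 2 (0.36 to 0.45, adjusted p up to 0.12). Mrps6 shares 19.9% of its exon bases with genes on the same strand, among them Slc5a3, the myo-inositol transporter, whose LFC for Reloading against Unloading was 1.60 (adjusted p = 4.10e-05), and the part of this overlap was not tested. Mrps2, a small-subunit protein with a bacterial counterpart, had 16.5, 15.5, 16.9 and 17.6 CPM in Control 1 to 4, 12.1 and 13.1 CPM in Unloading 1 and 2, and 19.1, 20.0 and 17.1 CPM in Reloading 1 to 3. Unloading was the low group and Reloading overlapped Control, with an LFC of -0.40 ± 0.11 (SE, adjusted p = 0.0305) for Unloading against Control and 0.57 ± 0.11 (SE, adjusted p = 0.00106) for Reloading against Unloading. The latter call held without any single library.

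Mrps35, found in mitochondria only, had 19.2, 19.1, 15.9 and 14.3 CPM in Control 1 to 4, 13.8 and 12.6 CPM in Unloading 1 and 2, and 17.9, 19.5 and 20.1 CPM in Reloading 1 to 3, and its LFC for Reloading against Unloading was 0.54 ± 0.13 (SE, adjusted p = 0.00495). Control was spread widely and overlapped Reloading, and without Unloading 2 the value was 0.46 (adjusted p = 0.0654). Mrps12, the protein at the decoding centre, had 18.7, 24.0, 21.7 and 22.8 CPM in Control 1 to 4, 15.7 and 20.9 CPM in Unloading 1 and 2, and 24.4, 25.5 and 21.8 CPM in Reloading 1 to 3. Unloading 1 was the lowest library, Unloading 2 lay inside the Control range, and the LFC of 0.38 ± 0.13 (SE, adjusted p = 0.0368) fell to 0.19 (adjusted p = 0.37) without Unloading 1. The call was also lost without Reloading 1 (adjusted p = 0.0788) or Reloading 2 (adjusted p = 0.122), and with libraries paired by description numbers (0.27, adjusted p = 0.104). It was lost by DESeq2 as well (0.35, adjusted p = 0.0779). Mrps18b, one of 3 paralogues of bacterial S18 in the family, had 16.8, 16.8, 16.7 and 16.7 CPM in Control 1 to 4, 16.6 and 15.4 CPM in Unloading 1 and 2, and 21.0, 19.5 and 21.5 CPM in Reloading 1 to 3. The Control libraries were nearly equal and all 3 Reloading libraries lay above the other 6, with LFCs of 0.37 ± 0.10 (SE, adjusted p = 0.00868) against Unloading and 0.30 ± 0.08 (SE, adjusted p = 0.00934) against Control. DESeq2 made neither call (adjusted p = 0.0525 against Unloading and 0.0557 against Control). Without Unloading 2 the former was 0.30 (adjusted p = 0.104). Mrpl47 was at the margin, with an LFC of 0.29 ± 0.11 (SE, adjusted p = 0.0494) that missed the threshold whichever library was left out, Control libraries included (adjusted p 0.0515 to 0.254), and with libraries paired by description numbers (0.32, adjusted p = 0.0631).

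The 6 members with the largest decrease from Unloading to Reloading were Mrps18c, Mrps15, Mrpl33, Mrpl42, Mrpl30 and Mrps24. Mrps18c, another S18 paralogue, had 12.2, 10.7, 8.93 and 12 CPM in Control 1 to 4, 10.6 and 11.6 CPM in Unloading 1 and 2, and 7.17, 8.10 and 6.76 CPM in Reloading 1 to 3. Unloading lay inside the Control range and Reloading below both, with an LFC of -0.60 ± 0.15 (SE, adjusted p = 0.00534) that became -0.53 (adjusted p = 0.0543) without Unloading 2 and -0.35 (adjusted p = 0.0717) with library totals. Mrps15, the counterpart of bacterial S15, had 50.5, 49.3, 50.2 and 45.1 CPM in Control 1 to 4, 42.4 and 42.2 CPM in Unloading 1 and 2, and 25.7, 32.3 and 30.9 CPM in Reloading 1 to 3. The 3 groups did not overlap, in the order Control, Unloading, Reloading, and the LFC was -0.51 ± 0.10 (SE, adjusted p = 0.000827) against Unloading, and -0.26 (adjusted p = 0.0489) with library totals. Mrpl33, a short large-subunit protein with a bacterial counterpart, had 36.1, 31.0, 29.0 and 30.2 CPM in Control 1 to 4, 30.9 and 27.5 CPM in Unloading 1 and 2, and 20.2, 21.8 and 20.7 CPM in Reloading 1 to 3, an LFC of -0.48 ± 0.10 (SE, adjusted p = 0.00222), and -0.23 (adjusted p = 0.0996) with library totals. Reloading alone stood apart, and Control and Unloading overlapped. Mrpl42 had 220.0, 198, 186 and 212 CPM in Control 1 to 4, 158 and 168 CPM in Unloading 1 and 2, and 117, 128 and 125 CPM in Reloading 1 to 3. It fell in both steps without overlap between groups, with LFCs of -0.32 ± 0.08 (SE, adjusted p = 0.0202) for Unloading against Control and -0.40 ± 0.08 (SE, adjusted p = 0.00152) for Reloading against Unloading, the latter being -0.15 (adjusted p = 0.142) with library totals. Mrpl30 had 63.6 and 66.2 CPM in Unloading and 44.2, 51.3 and 53.8 CPM in Reloading, an LFC of -0.38 ± 0.09 (SE, adjusted p = 0.00268), and -0.13 (adjusted p = 0.214) with library totals. Mrps24 had 27.0 and 33.6 CPM in Unloading and 22.8, 23.2 and 26.1 CPM in Reloading, an LFC of -0.34 ± 0.11 (SE, adjusted p = 0.0225) that was -0.17 without Unloading 2, -0.30 without Reloading 1 and -0.32 without Reloading 2, where the call was lost. With library totals it was -0.090 (adjusted p = 0.518).

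**Figure D3:**
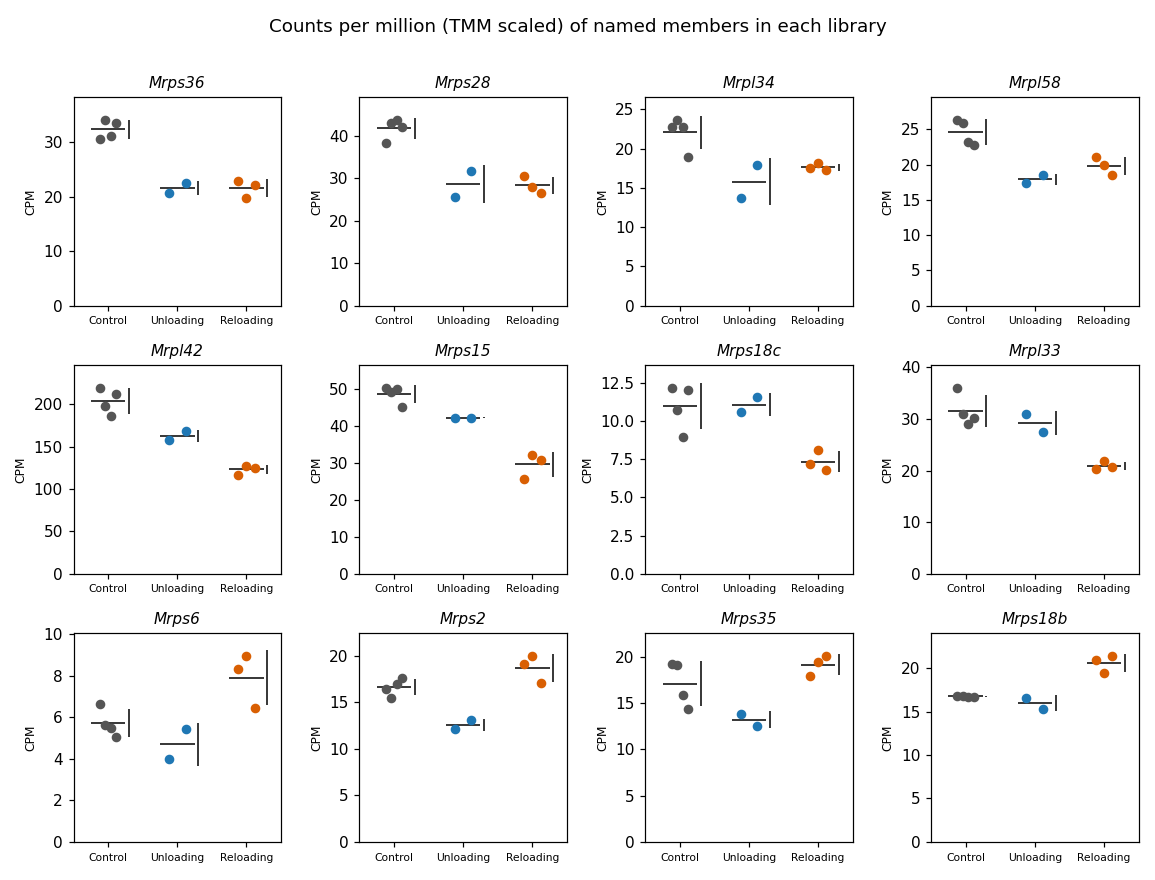
CPM in each library for 12 members, with dots for libraries, horizontal lines for group means and vertical lines for 1 SD (n = 4 Control, 2 Unloading, 3 Reloading). In the first row Control stands above both other groups, in the second row Reloading is lowest, and in the third row Reloading lies above Unloading.

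Between Reloading and Control most members were lower under the main scaling, TMM (trimmed mean of M-values). Their median then lay further from 0 here than in the other 2 comparisons, and with library totals it lay closest to 0. Of the 77, 50 passed as lower (64.9%) against 21.3% of all tested genes, and 2, Mrps6 and Mrps18b, passed as higher (2.60%) against 22.1% (43.5% in either direction). The median LFC was -0.29 against 0.01 over all genes, and 71 members were negative (92.2%) against 48.9%. In 55 members every Reloading library lay below every Control library (71.4%), against 22.7% of all tested genes, and in 1, Mrps18b, every one lay above, against 24.2%. In plain shares of all counts there were 26 below (33.8%), against 10.6% of all tested genes, and 8 above, against 41.6%. With library totals, which placed the median of all genes at 0.25, the members' median was -0.05. There were then 22 lower and 7 higher calls, against 9.99% and 40.6% of all tested genes. The direction of the median thus held while its size did not. Relative to all genes the members stood at -0.30 under both scalings, a distance that a change of scaling can hardly alter. Under each of the 5 scalings 22 genes were called lower, and Mrps6 and Mrps18b were called higher under all 5. No scaling placed the median of all genes below -0.0010, so the higher calls could hardly be lost in this way. The share of all tested genes called under all 5 was not counted. Without the pair of skin-bearing libraries there were 41 lower calls and 1 higher. DESeq2 called 47 lower and 0 higher after adjustment, with 2 higher at an unadjusted p under 0.05.

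The 6 largest decreases against Control belonged to both subunits. Mrpl42 had a mean of 204 ± 15.0 CPM in Control (SD, n = 4) and 123 ± 5.48 CPM in Reloading (SD, n = 3), and its LFC was -0.73 ± 0.07 (SE, adjusted p = 1.50e-06). Mrps15, whose values are given above, had an LFC of -0.72 ± 0.08 (SE, adjusted p = 7.55e-06). Mrpl54, a large-subunit protein found in mitochondria only, had 25.5, 33.1, 31.5 and 28.5 CPM in Control 1 to 4, 21.3 and 25.7 CPM in Unloading 1 and 2, and 18.4, 20.0 and 18.4 CPM in Reloading 1 to 3, with Unloading 2 inside the Control range and an LFC of -0.65 ± 0.10 (SE, adjusted p = 0.000122). Mrps33 had 11.9, 12.6 and 11.0 CPM in Reloading, below all Unloading and Control libraries, and an LFC of -0.62 ± 0.10 (SE, adjusted p = 0.000233). Mrpl1, a protein of the mobile stalk at the exit site, had 30.0, 30.8, 30.4 and 33.7 CPM in Control 1 to 4, 24.5 and 25.7 CPM in Unloading 1 and 2, and 18.9, 20.4 and 22.5 CPM in Reloading 1 to 3. On this TMM scale the 3 groups followed each other without overlap, and the LFC was -0.60 ± 0.08 (SE, adjusted p = 4.45e-05). From Unloading to Reloading it was -0.28 ± 0.10 (SE, adjusted p = 0.0337), a call not kept under all 5 scalings. Mrps24 had 37.3, 39.1, 34.1 and 34.8 CPM in Control 1 to 4 and an LFC of -0.59 ± 0.09 (SE, adjusted p = 0.000108). All 6 were among the 22 called lower under every scaling, with LFCs from -0.49 for Mrpl42 to -0.35 for Mrps24 with library totals.

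**Figure D4:**
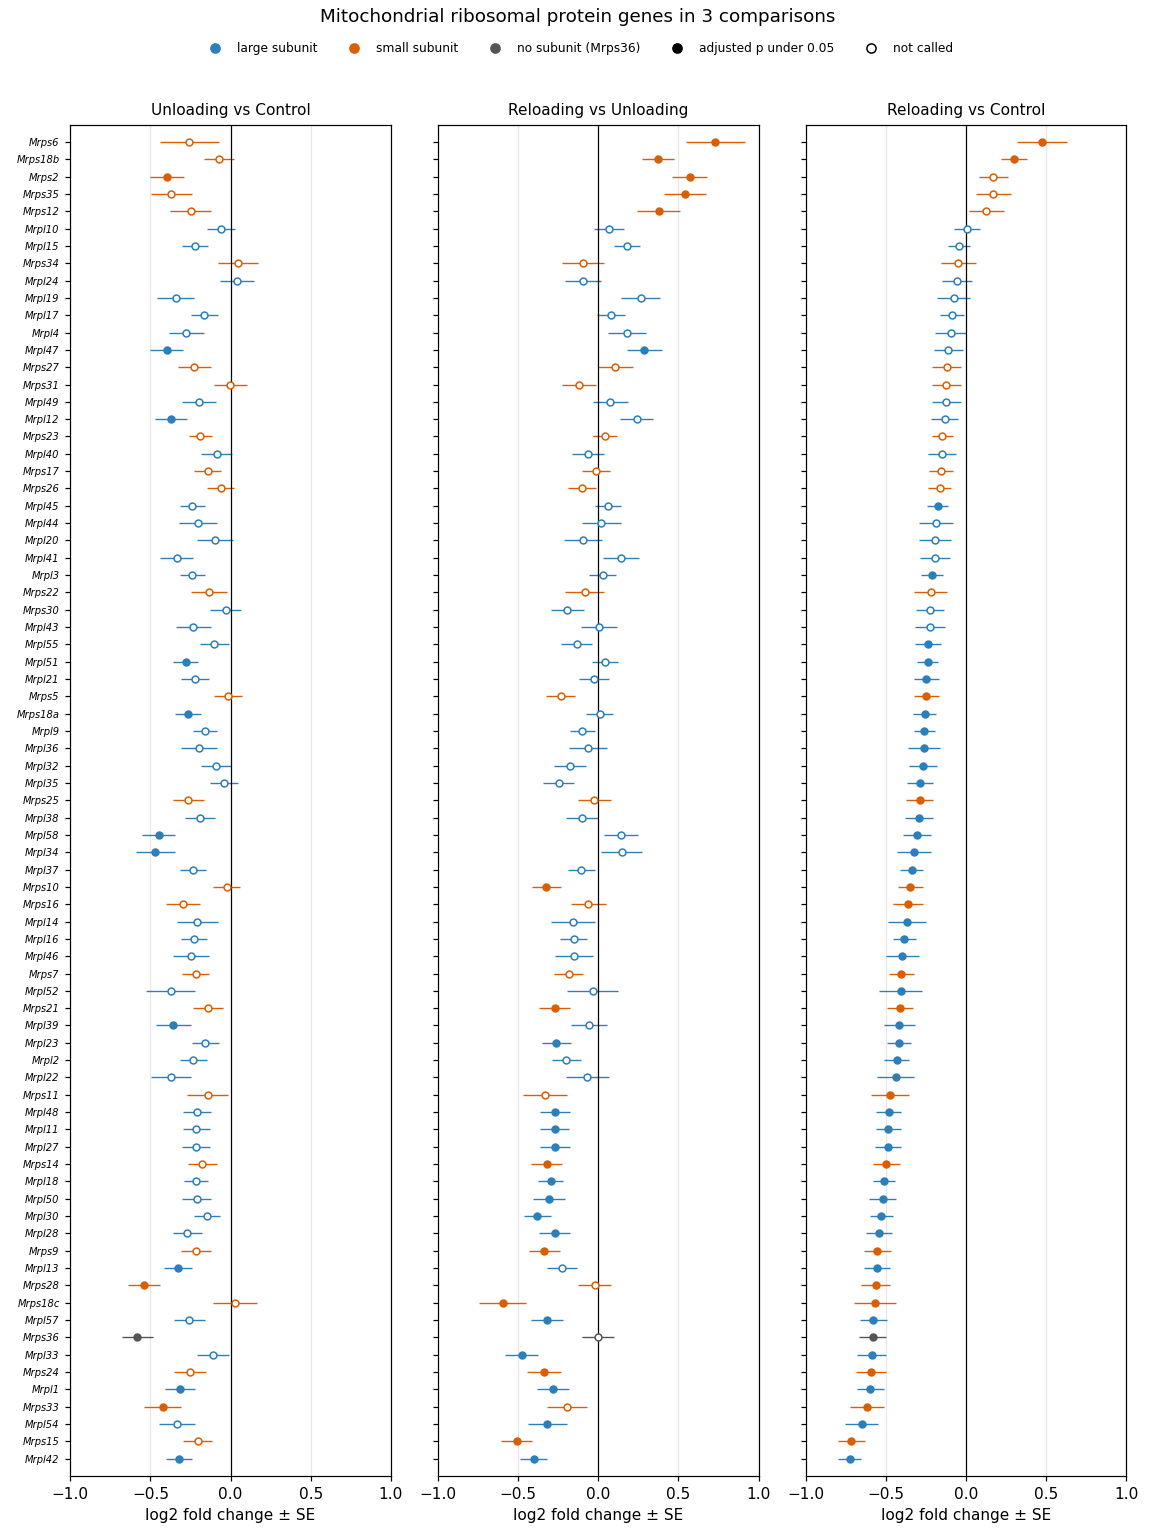
Log2 fold change ± SE of each of the 77 genes in the 3 comparisons, ordered by the value for Reloading against Control, with filled symbols for an adjusted p under 0.05 and colours for the subunits. Most points lie left of 0 for Unloading against Control and Reloading against Control, and from Unloading to Reloading they spread to both sides, where library totals would move the median of the members from -0.10 to 0.15.

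Each comparison has its own pattern of calls, and since they share libraries the values are set side by side only. A call in one comparison and none in another is not a tested difference between them. The share of all tested genes with each pattern was not counted, so the numbers below do not set the members apart from other genes. Over all tested genes, 9.90% were called in Unloading against Control, 37.5% in Reloading against Unloading and 43.5% in Reloading against Control. Mrpl47 and Mrps2 were called lower in Unloading and higher from Unloading to Reloading. Mrpl1 and Mrpl42 were called lower in all 3 comparisons. Another 9 members were called lower in Unloading and lower in Reloading against Control with no call between, 18 were called lower from Unloading to Reloading and against Control, and 21 were called lower against Control in Reloading only. Mrpl12 was called in Unloading only. Mrps12 and Mrps35 were called higher from Unloading to Reloading only, and Mrps6 and Mrps18b were called higher in Reloading against both groups. The other 20 had no call in any comparison.

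Among members with a known special role, Mrpl12, Mrpl58 and Mrps36 passed as lower in Unloading and Mrpl18, Mrpl45, Mrpl58 and Mrps36 in Reloading against Control. Mrpl12, a stalk protein that also binds the mitochondrial RNA polymerase, had 91.0, 109, 105 and 96.9 CPM in Control 1 to 4, 69.1 and 86.2 CPM in Unloading 1 and 2, and 87.1, 92.9 and 95.3 CPM in Reloading 1 to 3. Unloading 1 was the lowest library and Reloading overlapped Control, with LFCs of -0.37 ± 0.10 (SE, adjusted p = 0.0255) for Unloading, lost without Unloading 1, Control 2 or Control 3 (-0.22, -0.33 and -0.35), and -0.13 (adjusted p = 0.22) for Reloading against Control. With libraries paired by description numbers the latter was called lower (-0.19, adjusted p = 0.0428), and with library totals it was 0.11 (adjusted p = 0.306). Mrpl18, a protein related to the binders of 5S ribosomal RNA, had 59.8, 63.6, 57.2 and 60.7 CPM in Control 1 to 4, 49.8 and 53.9 CPM in Unloading 1 and 2, and 40.1, 42.5 and 43.8 CPM in Reloading 1 to 3, with the 3 groups in descending order and an LFC of -0.51 ± 0.07 (SE, adjusted p = 2.76e-05) for Reloading against Control. Its exons share 10.1% of their bases with Tcp1, a chaperonin subunit on the other strand, whose LFC in that comparison was 0.13 (adjusted p = 0.145). From Unloading to Reloading the LFC of Mrpl18 was -0.30 (adjusted p = 0.00908), and -0.25 without Unloading 2. With library totals this step was -0.050 (adjusted p = 0.632), so the descending order of the last 2 groups rested on the scaling. Mrpl45, which anchors the tunnel exit to the inner membrane, had 47.7, 47.8, 45.9 and 43.4 CPM in Control 1 to 4, 38.0 and 40.3 CPM in Unloading 1 and 2, and 41.3, 41.9 and 39.3 CPM in Reloading 1 to 3, and its LFC of -0.18 ± 0.07 (SE, adjusted p = 0.0445) was lost without Control 1, 2 or 3 or any Reloading library (-0.15 to -0.20) and with libraries paired by description numbers (-0.17, adjusted p = 0.0582), and turned to 0.062 with library totals.

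The other role genes were less clear. Mrpl44, related to the ribonuclease III family, had 22.8, 23.5, 24.4 and 23.3 CPM in Control 1 to 4, 16.9 and 23.7 CPM in Unloading 1 and 2, and 19.6, 21.1 and 21.3 CPM in Reloading 1 to 3. Unloading 1 was the lowest library and Unloading 2 lay inside the Control range, and the LFCs were -0.21 (adjusted p = 0.291) for Unloading and -0.19 (adjusted p = 0.164) for Reloading against Control. The value for Unloading was 0.0097 without Unloading 1 and -0.48 without Unloading 2. Mrps30 carries the S of the small subunit by name and sits in the large one. It had 20.8, 19.9, 18.5 and 20.5 CPM in Control 1 to 4, 20.4 and 18.6 CPM in Unloading 1 and 2, and 17.1, 16.2 and 17.7 CPM in Reloading 1 to 3, with an LFC of -0.22 (adjusted p = 0.0503) for Reloading against Control, just outside the threshold. It was called lower there with median-ratio scaling (-0.24, adjusted p = 0.0391) and without Control 3 (-0.27, adjusted p = 0.0356). With library totals the value was 0.016 (adjusted p = 0.898). Mrps18a, also a large-subunit protein with a small-subunit name, had an LFC of -0.27 (adjusted p = 0.0467) for Unloading and -0.26 (adjusted p = 0.00798) for Reloading against Control. Mrpl58 had 21.1, 19.9 and 18.5 CPM in Reloading and an LFC of -0.31 ± 0.09 (SE, adjusted p = 0.012) against Control, which was -0.26 (adjusted p = 0.0626) without Reloading 3 and -0.066 (adjusted p = 0.581) with library totals.

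Lower calls were found in both subunits. Of the 50 large-subunit genes, 10 (20.0%) were called lower in Unloading and 35 (70.0%) in Reloading against Control, with medians of -0.23 and -0.29. Of the 26 small-subunit genes, 3 (11.5%) and 14 (53.8%) were called lower, with medians of -0.20 and -0.27. Over all tested genes these shares were 5.50% and 21.3%. The difference between the subunits was not tested. Across members, LFCs followed neither exon length nor level closely, with Spearman's rho of 0.18 and 0.09 for Unloading against Control and 0.15 and -0.21 for Reloading against Control, against 0.29, 0.12, 0.14 and -0.18 over all tested genes. For Reloading against Unloading rho was -0.03 with length and -0.25 with level, against -0.07 and -0.28 over all tested genes. Genes of a library share its depth and composition, so these values are descriptions.

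Other genes of mitochondrial translation were described in the same fit, where the shares over all tested genes were again 5.50% lower and 4.40% higher in Unloading, and 21.3% lower and 22.1% higher in Reloading against Control. Of 5 mitoribosome proteins without an Mrp name, 2 (40%) were called lower in Unloading and all 5 in Reloading against Control, with a median of -0.41 in the latter. Among them Aurkaip1 had an LFC of -0.58 (adjusted p = 4.92e-05) and Dap3, a GTP-binding small-subunit protein, -0.44 (adjusted p = 0.000332). Of 15 translation factors, 6 (40%) were called lower in Unloading and 10 (66.7%) in Reloading against Control, with Gfm1, an elongation factor, at -0.35 (adjusted p = 0.00708) in Unloading and Gfm2, a ribosome recycling factor, at -0.47 (adjusted p = 0.000103) in Reloading. Of 20 genes for mitochondrial tRNA charging, 1 (5%) was called lower in Unloading, a share near that of all genes, and 7 (35.0%) in Reloading against Control, with 1 higher (5%). Gatb, of the complex that makes glutaminyl-tRNA, had an LFC of -0.79 (adjusted p = 6.77e-05) in Reloading against Control, and Ears2, the glutamyl-tRNA synthetase, had 0.68 (adjusted p = 0.00116) from Unloading to Reloading.

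The 29 assembly factors were mixed. In Unloading 2 (6.90%) were called lower, near the 5.50% of all genes, Mrm1 and Mrm2, both methyltransferases of the large ribosomal RNA. Mrm1 had 6.99, 7.88, 10.1 and 7.55 CPM in Control 1 to 4, 4.87 and 5.08 CPM in Unloading 1 and 2, and 12.6, 13.4 and 14.5 CPM in Reloading 1 to 3. It was low in Unloading and high in Reloading without overlap between groups, with LFCs of -0.72 ± 0.16 (SE, adjusted p = 0.0113) for Unloading against Control and 1.44 ± 0.16 (SE, adjusted p = 8.88e-06) for Reloading against Unloading. Afg3l2, a subunit of the protease that matures the member Mrpl32, had an LFC of 0.62 ± 0.09 (SE, adjusted p = 8.07e-05) for Reloading against Unloading. Malsu1, which binds the large subunit during assembly, had -0.62 ± 0.09 (SE, adjusted p = 6.72e-05) for Reloading against Control. In that comparison 3 assembly factors (10.3%) were called higher and 10 (34.5%) lower, against 22.1% and 21.3% of all genes.

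Of 11 tested genes for transcription and upkeep of mitochondrial DNA, 2 (18.2%) were called lower in Unloading and 5 (45.5%) in Reloading against Control, with 1 higher (9.09%). Mterf2 had an LFC of -0.97 (adjusted p = 1.11e-05) and Tfb2m, a transcription factor of the mitochondrial promoters, -0.57 (adjusted p = 8.13e-05) in that comparison. Twnk, the mitochondrial helicase, which shares exon bases with Mrpl43, had 0.46 (adjusted p = 0.000487) for Reloading against Unloading. Of 9 upstream regulators, 5 (55.6%) were called higher in Reloading against Control, against 22.1% of all genes, among them Pprc1, a PGC-1 related coactivator, at 0.69 (adjusted p = 2.16e-05) and Myc at 1.57 (adjusted p = 8.15e-05). Library totals shift these values upward by the amount given above. In Unloading, Esrra, an oestrogen-related receptor, was lower at -0.41 (adjusted p = 0.013) and Nrf1 was higher at 0.38 (adjusted p = 0.031).

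The respiratory chain and the cytosolic ribosome give the surroundings of these values. Of the 37 nuclear complex I genes, 23 (62.2%) were called lower in Unloading and 37 in Reloading against Control, with medians of -0.32 and -0.59, and Ndufs1 had an LFC of -0.85 (adjusted p = 1.58e-07) in the latter. The 13 mRNAs from mitochondrial DNA had medians of -0.12 in Unloading and -0.85 in Reloading against Control, where all 13 were called lower. In Unloading 6 of the 13 (46.2%) were called lower and 0 higher, against 5.50% and 4.40% of all genes. Their LFCs in Unloading ran from -0.76 to 0.24. The 76 cytosolic ribosomal proteins had a median of 0.07 in Unloading, with 6 called higher (7.89%), against 4.40% of all genes, among them Rps14 at 0.41 (adjusted p = 0.00234). In Reloading against Control their median was -0.07, with 6 higher (7.89%) against 22.1% and 16 lower (21.1%) against 21.3% of all genes, so that the lower share was that of all genes, and Rpl3, of the cytosolic large subunit, had 1.62 (adjusted p = 1.93e-10).

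**Figure D5:**
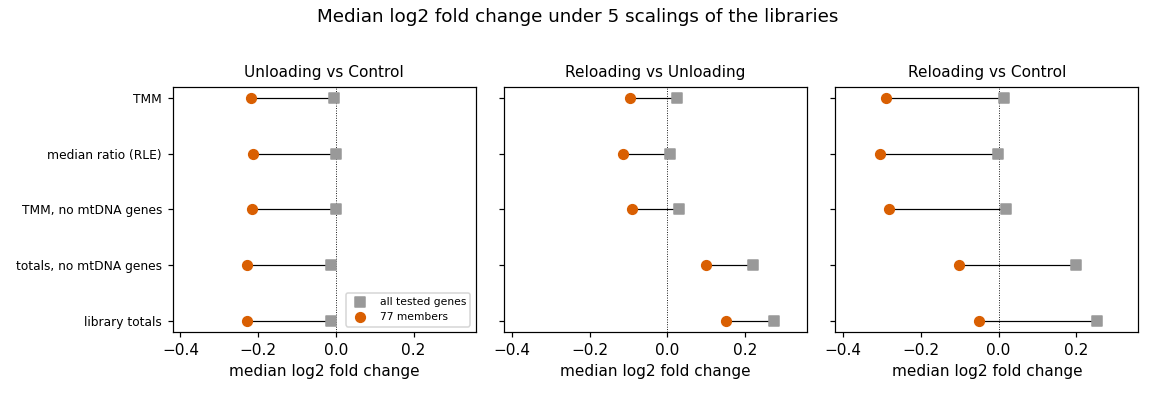
Median log2 fold change of the 77 members (circles) and of all tested genes (squares) in the 3 comparisons under 5 ways of scaling the libraries. The distance between the symbols can hardly change, because a scaling moves all genes of a comparison nearly alike. The zero line moves, so that the members' median for Reloading against Unloading is -0.10 with the trimmed mean of M-values and 0.15 with library totals.

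Counting did not use strand, and 31 members share exon bases with another annotated gene, 16 of them over more than 10% of their length. The largest shares were those of Mrps34 (77.8%, with Mapk8ip3 and Nme3), named for this overlap after its values were seen, Mrps25 (69.8%, with Nr2c2) and Mrpl19 (36.0%, with Gcfc2). Mrps25 had 20.8, 20.3, 20.2 and 21.2 CPM in Control 1 to 4, 15.9 and 18.3 CPM in Unloading 1 and 2, and 16.9, 17.4 and 16.2 CPM in Reloading 1 to 3, and Nr2c2 had an LFC of 0.32 (adjusted p = 0.12) for Unloading against Control where Mrps25 had -0.27 (adjusted p = 0.0957). Read pairs that hit several genes are left uncounted under the stated settings, and the effect on each gene was not tested. Without the 31 members the medians were -0.34 in Reloading against Control, -0.23 in Unloading against Control and -0.10 from Unloading to Reloading.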

How the data were processed

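The authors aligned reads with STAR 2.7.3a to the mouse build GRCm38.p6 and obtained gene counts of read pairs from featureCounts 2.0.3, without strand, against Ensembl release 102. The study's methods describe single reads, while the count table holds pairs. The deposited table holds raw counts, with no filter or scaling, and the authors' exon length per gene. Gene symbols and types came from the authors' DESeq2 tables, whose fold changes, p-values and means were not used. Rows of 5 pseudogenes with similar symbols stayed out.

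The test was edgeR 4.0.16 under R 4.3.3. The function filterByExpr (minimum count 10, minimum total 15) removed low genes, TMM (trimmed mean of M-values) set the scale, and 1 quasi-likelihood fit over all 9 libraries with the group as its only term gave 3 comparisons (two-sided F-test, Benjamini-Hochberg adjustment over 14851 genes, threshold 0.05). The common biological coefficient of variation was 0.0927. The standard error was derived from the F statistic. DESeq2 1.42.0, 4 other scalings, no filter, robust estimation, fits of the 2 groups compared, left-out libraries and replicate blocks were alternatives. Counts of read pairs were not corrected for molecules. The errors and p-values cover the spread between libraries. A single count was worth 0.0546 to 0.113 CPM.

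The members and gene lists were chosen with earlier results of these data known. Members named are the 6 higher and 6 lower with the largest change per comparison among those called, the 5 highest and 5 lowest by level per length, and 8 with a known role, and from each other list at most the 2 with the smallest adjusted p in a comparison. The 2 numberings in the labels, titles and descriptions, differ for Reloading. By the description numbers, the deviations of same-numbered Control and Reloading libraries from their group means correlated at 0.36, 0.14 and 0.16 over 14851 genes. Control 1, whose description number no Reloading library has, correlated at 0.11 with Reloading 2 and 0.12 with Reloading 3. These values do not show that the libraries are paired, and the pairing was fitted as an alternative only. The design fixed the fit without the pairing, and values with it are given where it changes a call. The pair with 0.36 is Control 2 with Reloading 1, both of which hold skin transcripts. Correlations with the same-numbered Unloading libraries were 0.05 and 0.08 for Control and 0.02 for Reloading, and by title numbers none of the Control and Reloading pairs was above 0.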

Additional observations from a re-analysis of the deposited data

Results flagged for a closer look

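The summed signal of the 26 small-subunit genes was unusually low in 1 library of its group. It was 795 CPM in Control 3 whereas Control 1, 2 and 4 had 811 to 812 CPM, a gap of 0.908 of the whole range of the group, above Dixon's 95% critical value for 4 samples. The distance is small beside the 672 and 743 CPM of the Unloading libraries and the 647 to 664 CPM of the Reloading libraries. Of 35 values tested in the Control group this was 1, and chance alone passes about 1 in 20.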

How the results depend on the processing

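The numbers of calls that involve Reloading changed with the scaling. For Reloading against Unloading, library totals gave 23 higher, 1 lower and a median of 0.15. Of all tested genes, 35.4% were then higher and 7.34% lower. Library totals without mitochondrial DNA gave 20, 2 and 0.10, against 31.0% and 9.05% of all tested genes. For Reloading against Control these scalings gave 7, 22 and -0.050, and 5, 26 and -0.10. The shares of all tested genes were 40.6% higher and 9.99% lower, and 36.2% and 11.9%. For the other alternatives in this section, shares over all genes are not given. Median-ratio scaling, DESeq2 and the fit without members that share exon bases moved the median for Reloading against Control to -0.30, -0.31 and -0.34. DESeq2 called 3 higher from Unloading to Reloading, 9 lower in Unloading and 0 higher in Reloading against Control. Without the filter 7 were lower in Unloading. Without Control 2 and Reloading 1 there were 6 lower in Unloading, 10 lower from Unloading to Reloading, and 1 higher in Reloading against Control.

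Leaving out 1 library gave 3 to 5 higher, 4 to 21 lower and medians of -0.17 to -0.040 for Reloading against Unloading, 0 to 15 lower and medians of -0.31 to -0.16 for Unloading against Control, and 1 to 2 higher, 39 to 51 lower and medians of -0.32 to -0.27 for Reloading against Control. Where 1 Unloading library was left, it was assumed to vary like the other groups.

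With the replicate block by description numbers, 9 members were lower in Unloading and the median for Reloading against Control was -0.31, with 50 lower and 2 higher as without the pairing. With the block by title numbers, which share only a number, 6 were lower in Unloading and 1 higher in Reloading against Control.

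Of 940 alternative values for 47 named values, 811 kept their direction and side of the threshold, 90 lost the call, 14 gained it and 25 turned sign. The values that turned sign belong to 5 role genes, and of these changes that of Mrpl45 alone was called. With library totals, Mrps30 and Mrps36 were at 0.053 and 0.25 for Reloading against Unloading, and Mrpl12, Mrpl44, Mrpl45 and Mrps30 at 0.11, 0.053, 0.062 and 0.016 for Reloading against Control. With library totals without mitochondrial DNA, Mrps30 and Mrps36 were at 0.0017 and 0.19 in the first of these comparisons, and in the second Mrpl12, Mrpl44 and Mrpl45 were at 0.054, 0.00020 and 0.0087. For Reloading against Unloading, Mrpl44 was at -7.1e-05 with median-ratio scaling, -0.012 without the filter, -0.0082 by DESeq2 and -0.091 with the block by description numbers, and Mrps36 at 0.0025 with TMM without mitochondrial DNA and 9.4e-05 with the block by title numbers. Mrps30 was at 0.0066 for Unloading against Control without the filter. Leaving out 1 library gave -0.20 to 0.28 for Mrpl44 and -0.065 to 0.056 for Mrps36 for Reloading against Unloading, and -0.48 to 0.0097 for Mrpl44 and -0.094 to 0.039 for Mrps30 for Unloading against Control.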
